A study of Mus musculus with 8 samples.

Results

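The 6 myeloid Ms4a genes described here are Ms4a7, Ms4a4a, Ms4a4c, Ms4a6b, Ms4a6c and Ms4a6d, which were chosen by name out of 30406 genes shared by all libraries. The files list 19 genes whose symbol starts with Ms4a, and the other 13 are described together at the end with the related Tmem176a and Tmem176b. The data are single-cell RNA-seq libraries of leukocytes (CD45+ cells that an intravenously injected CD45 antibody had not stained, which leaves out cells inside blood vessels) sorted from adult male C57BL/6 mice. There was 1 library each of control brain, control pia mater and control dura mater, 2 libraries of brain (called replicates 1 and 2) and 1 each of pia and dura taken 24 h after transient middle cerebral artery occlusion (MCAO), a model of ischemic stroke, and 1 library of brain at 72 h. How long the artery was occluded for these libraries is not given in the sources used here. Repeat experiments were pooled to n = 5 for each compartment. How many mice went into each library is not given in the sources used here, so spread between libraries of a group may be technical. P-values rest on the spread between libraries. For comparisons of cell classes, this is how the class difference varies over libraries of different tissues and times. No genetic modification is named for these mice, and the control mice had no MCAO. The libraries held 6591898 to 20754181 unique molecular identifiers (UMIs, 1 per captured transcript) in total, and 32457 cells carry a cluster name given by the authors.

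MS4A proteins span the membrane 4 times and sit at the cell surface or in endosomes, where several of them associate with receptors and tune their signalling. The best known member, Ms4a1, encodes the B cell antigen CD20, and the genes described here are known from monocytes and macrophages. In the central nervous system, microglia of the parenchyma and macrophages of the borders (meninges, perivascular spaces, choroid plexus) are resident cells of largely embryonic origin, although macrophages of the dura and choroid plexus are in part replaced from the bone marrow in adults. Monocytes enter from the blood after injury. The question here was which of these genes separate infiltrating and border macrophages from microglia, in which tissue and at which time.

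The 6 genes lie within 283.8 kb of mouse chromosome 19 (GRCm38, GENCODE M21 annotation). From the lower coordinates upwards these are Ms4a7 (chr19:11321039-11336146, minus strand), Ms4a4a (chr19:11375523-11392790, plus), Ms4a4c (chr19:11404770-11427246, plus), Ms4a6c (chr19:11469366-11482192, plus), Ms4a6b (chr19:11516512-11531256, plus) and Ms4a6d (chr19:11586604-11604849, minus). Ms4a6b and Ms4a6c are close copies, and their promoters are shown because their start regions share sequence that other genes do not hold. The sequences are from RefSeq (GRCm38.p6), 5′ to 3′ on the plus strand, end before the first base of the window that an annotated exon covers, and mark in capitals the runs of at least 16 bases that both windows of 250 bases before the start contain.
Ms4a6c, chr19:11469118-11469365: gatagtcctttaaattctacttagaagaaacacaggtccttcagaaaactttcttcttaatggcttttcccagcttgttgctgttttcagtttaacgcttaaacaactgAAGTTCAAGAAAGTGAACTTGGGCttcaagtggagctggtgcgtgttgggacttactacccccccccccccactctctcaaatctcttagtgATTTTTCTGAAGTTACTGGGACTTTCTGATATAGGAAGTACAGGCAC
Ms4a6b, chr19:11518309-11518452: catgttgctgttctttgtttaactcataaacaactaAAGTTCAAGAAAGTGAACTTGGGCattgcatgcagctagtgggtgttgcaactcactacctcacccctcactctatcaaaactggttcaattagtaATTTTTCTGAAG
The Ms4a6b window lies within the gene as GENCODE annotates it, before the start that RefSeq gives, and its other 106 bases lie in an exon of another isoform. The windows share 1 run of 24 bases and 1 run of 48 bases, and the longer run continues past the printed end of both (71 of the 72 shared bases are printed for Ms4a6c). None of 32849 windows of other genes held a shared run (0%), and no other pair of member windows shared more than 9 bases. Windows were found for 5 of the 6 genes, without Ms4a6d. In the last 500 bases of the transcripts, where 3′ libraries take their reads, 7 of 411 runs of 90 bases in Ms4a6c also occurred in Ms4a6b, and none of the runs of the other 5 genes occurred in another Ms4a transcript. A small part of the reads of Ms4a6b and Ms4a6c may therefore be exchanged or dropped.

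The authors' cluster names were checked against marker genes before the Ms4a genes were read. Microglia are the cells of clusters Micro_1, Micro_2, Micro_3 and stress_Micro, border macrophages those of CAM_1 and CAM_2, macrophages those of Macro_1 and Macro_2, and SAMC those of the cluster the authors call stroke-associated myeloid cells. In pia and dura, border macrophages had all 6 border markers (Pf4, Lyve1, Mrc1, Cd163, F13a1, Cbr2), at a summed 4808 to 6976 CPM (UMIs of a gene per 1000000 UMIs of the class) per library, and 32.0 to 69.2 CPM of the microglia marker Tmem119. In control brain and in brain at 24 h replicate 1, the cells with the border macrophage name carried 3147 and 1285 CPM of Tmem119, a border sum of 38.1 and 8.58 CPM (with UMIs of 3 and 4 of the 6 markers), and neither Lyve1 nor Cd163. These cells thus go against their name. In brain at 24 h replicate 2 the border sum was 631 CPM and at 72 h it was 617 CPM. Both lay below every library of pia and dura. The cells at 72 h also had 275 CPM of the monocyte receptor Ccr2. Their monocyte marker sum (Ccr2, Ly6c2, Plac8, Fn1, Vcan) was 1369 CPM, against 10.1 to 56.9 CPM in pia and dura. Tmem119 and the monocyte sum are not given here for replicate 2. At 72 h the monocyte sum of the cells with the border macrophage name was thus above their border sum. The lists hold different genes, so this order of sums is a description. The reverse held for cells named microglia in pia and dura (51 to 330 cells per library), whose border sum was 860.5 to 4240.1 CPM against 2.46 to 31.3 CPM in brain. Each class comparison below rests on names that the authors derived from the same expression values, so its p-values describe the named clusters and do not test the clustering.

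Ms4a7 was nearly undetected in brain microglia and abundant in border macrophages of pia and dura. In brain microglia its level was 0.491 CPM in the control library, 0.406 and 2.18 CPM at 24 h and 15.3 CPM at 72 h. In border macrophages it was 1206 CPM in control pia, 690.1 CPM in pia at 24 h, 1499.7 CPM in control dura and 1317 CPM in dura at 24 h, so that all 4 libraries stood above every brain microglia library. Border macrophages of brain had 1.73 CPM in control, 2.52 and 82.9 CPM at 24 h and 634 CPM at 72 h. The 2 low brain libraries are those whose cells carry microglia markers, and they overlap with brain microglia.

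Macrophages had more Ms4a7 than brain microglia in all 8 libraries, with 203 CPM in control brain, 30.7 and 39.0 CPM at 24 h and 156 CPM at 72 h in brain, 582 and 267 CPM in control pia and pia at 24 h, and 941 and 917 CPM in control dura and dura at 24 h. SAMC had 4.33 and 69.8 CPM in brain at 24 h, 605 CPM in brain at 72 h and 369.8 CPM in pia at 24 h. The levels of SAMC thus spanned a wide range, and the lowest library overlapped with brain microglia. The border marker Pf4 was at 9.74, 49.3, 379 and 1772 CPM in the same SAMC libraries.

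**Figure D1:**
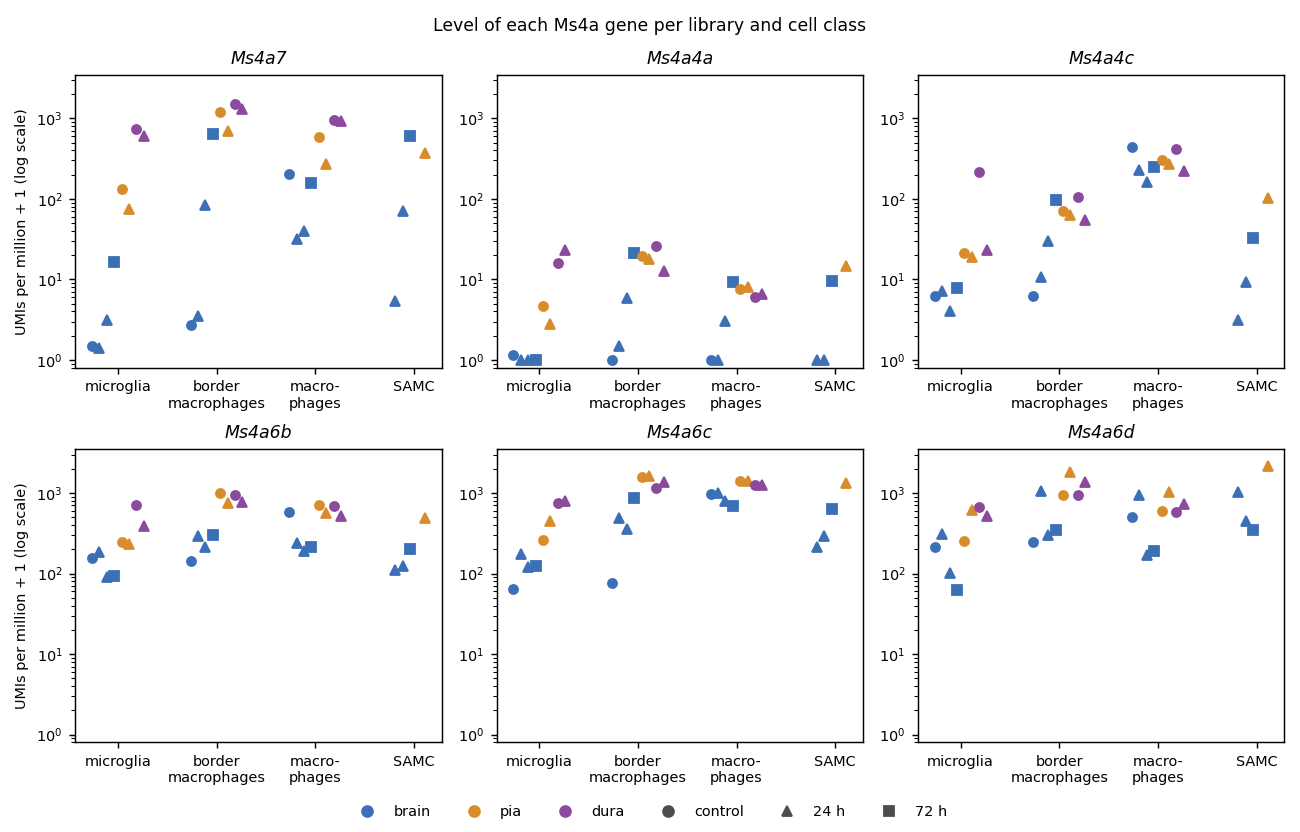
Level of each of the 6 Ms4a genes (CPM + 1 on a log axis) by cell class, 1 point for each library, with colours for tissue and shapes for control, 24 h and 72 h. Ms4a7 ranges from 0.406 CPM in brain microglia to 1499.7 CPM in border macrophages of control dura. Of 4 brain border macrophage libraries, 2 lie above the highest brain microglia library for Ms4a7 and Ms4a6d, and 3 for Ms4a4a, Ms4a4c, Ms4a6b and Ms4a6c.

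Microglia clusters of pia and dura had 132 and 73.2 CPM of Ms4a7 in pia (control, 24 h) and 729 and 607 CPM in dura, beside the border markers described above. Within control pia, Micro_2 (45 of the 293 cells named microglia) had 506 CPM of Ms4a7 with 1426 CPM of Pf4 and 195 CPM of Tmem119. Micro_1 (207 of the 293 cells) had 30.1 CPM of Ms4a7 with 88.0 CPM of Pf4 and 1532 CPM of Tmem119. How much the cells with border markers add to the level of these clusters was not tested. Over 78 sums of a library and a myeloid cluster with at least 30 cells, the genes most like Ms4a7 among 2868 genes were Pf4 (Pearson r of log2(CPM + 10) = 0.93), Apoe, a lipid carrier (0.89), and Cbr2, a border macrophage gene (0.87), and r with Tmem119 was -0.28. These sums share libraries and depth, and r is a description.

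**Figure D2:**
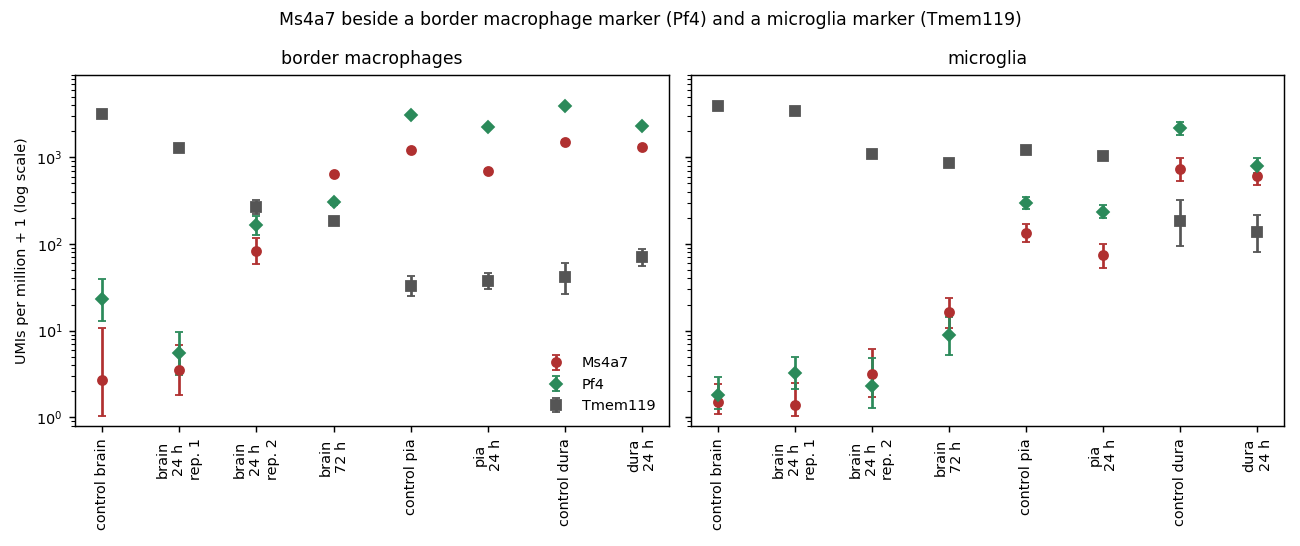
Levels of Ms4a7, Pf4 and Tmem119 (CPM + 1, log axis) in each library, for cells named border macrophages (left) and microglia (right), with exact 95% counting intervals as bars. In control brain and brain at 24 h replicate 1, border macrophages have high Tmem119 (3147 and 1285 CPM) and low Ms4a7 and Pf4, and in dura the microglia clusters have high Ms4a7 (729 and 607 CPM) and Pf4.

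Shares of single cells with the transcript also lay apart. Cells with fewer than 1000 UMIs were left out, and the others were thinned at random to 1000 UMIs. Of the 7603 brain microglia kept, 0.0921% had a UMI of Ms4a7 (exact 95% interval 0.0370 to 0.190%, 0.256% over all cells unthinned). In the 2252 pia and dura border macrophages kept, the share was 56.7% (54.6 to 58.8%, 71.5% over all cells unthinned). In B cells of pia and dura, which should lack the gene, the share was 2.59%, and in T and NK cells it was 2.91%, at median depths before thinning of 1326 and 1217 UMIs against 2208 in border macrophages. In the border macrophage clusters of brain, 0 of 313 control cells had a UMI, which allows a share of up to 0.958%, and the share was 0.240% and 5.69% at 24 h and 40.7% at 72 h. Intervals here cover counting error only.

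Ms4a4a was the rarest of the genes. Brain microglia held 1 UMI of it over all 4 libraries, in the control library. Border macrophages held 31 and 39 UMIs in control pia and pia at 24 h (18.4 and 17.1 CPM), 15 and 13 UMIs in control dura and dura at 24 h (25.1 and 11.8 CPM) and 0, 1, 2 and 60 UMIs in control brain, brain at 24 h replicates 1 and 2, and brain at 72 h. The pooled ratio of pia and dura border macrophages to brain microglia was 259, with an exact interval of 45.4 to 10320 that is wide because 1 UMI stands in the denominator. Macrophages had 5.06 to 6.94 CPM in pia and dura and 0, 0, 2.05 and 8.36 CPM in the brain libraries in the same order. SAMC had no UMI of Ms4a4a in either brain library at 24 h, 20 UMIs in brain at 72 h and 3 in pia at 24 h. The most alike gene was Ms4a7 (r = 0.73), followed by Cd38, an ectoenzyme that cleaves NAD (0.72), and Pla2g7, a secreted phospholipase (0.68).

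Ms4a4c separated macrophages from both microglia and border macrophages, but not from other myeloid clusters. Granulo_1 (505 ± 534 CPM, mean and SD over libraries) and the dendritic cell clusters mDC2 (261 ± 157 CPM) and mDC1 (140 ± 65.1 CPM) also held Ms4a4c, beside 232 ± 71.6 CPM in Macro_2. In macrophages it was at 443 CPM in control brain, 230.5 and 160.1 CPM in brain at 24 h, 249 CPM in brain at 72 h, 302 and 273 CPM in control pia and pia at 24 h, and 414 and 223 CPM in control dura and dura at 24 h. Brain microglia had 3.05 to 6.71 CPM and border macrophages of pia and dura 53.7 to 104 CPM, so none of these libraries overlapped with macrophages. The macrophage levels join Macro_1 and Macro_2. Macro_1 held 13 of 48 macrophage cells in control brain, 18 of 1062 in control pia and 22 of 610 in control dura. Brain border macrophages had 5.19 CPM in control, 9.59 and 29.3 CPM at 24 h and 95.7 CPM at 72 h. SAMC had 2.16 and 8.21 CPM in brain at 24 h, 32.1 CPM at 72 h and 100.5 CPM in pia at 24 h. The 213 CPM in microglia of control dura rests on 14 UMIs of 51 cells. Among myeloid sums, Ms4a4c was most like Crip1 (r = 0.88), Ccr2, the monocyte chemokine receptor (0.87), and Mndal, an interferon-inducible nuclear protein (0.87), while r with the monocyte gene Ly6c2 was 0.35 and with Tmem119 it was -0.61.

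The share of cells with a UMI of Ms4a4c at 1000 UMIs was 18.5% of brain and 20.0% of pia and dura macrophages, against 0.552% and 2.01% of microglia and 4.53% and 5.15% of border macrophages. B cells had 5.48% and 5.17%, and T and NK cells 2.51% and 4.14%. The border macrophage share therefore lay near that of lymphocytes, while the macrophage share was higher.

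Ms4a6c was present in microglia, border macrophages, macrophages and SAMC and lowest in brain microglia among these, at 63.9 CPM in control, 176 and 118 CPM at 24 h and 123 CPM at 72 h. Macrophages had 679 to 994 CPM in the 4 brain libraries and 1259 to 1417 CPM in pia and dura, with no overlap with brain microglia. Border macrophages had 1142 to 1607 CPM in pia and dura, and in brain 74.4 CPM in control, 485 and 353 CPM at 24 h and 856 CPM at 72 h. Of the border macrophage libraries, the control brain library lay within the range of brain microglia. SAMC lay above that range in 4 of 4 libraries, at 211, 291.5, 635 and 1333 CPM.

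Ms4a6b was at 90.1 to 187 CPM in brain microglia, and border macrophages of pia and dura had 744 to 985 CPM. Brain border macrophages had 140.2, 291, 212 and 303 CPM in control, 24 h replicates 1 and 2, and 72 h. Of these 4 libraries, 3 lay above the highest brain microglia library, and control overlapped with brain microglia. SAMC of brain had 110.4, 123 and 199 CPM, and 1 of these 3 libraries lay above the highest brain microglia library. Macrophages had 587 CPM in control brain, 191 to 241 CPM in the other brain libraries and 514 to 714 CPM in pia and dura. T cells had the highest cluster mean of Ms4a6b, 732 ± 271 CPM (SD over libraries), so this gene did not mark myeloid cells alone. Ms4a6b and Ms4a6c were each other's most alike or second most alike gene (r = 0.85), beside Ctsc, a lysosomal protease, for Ms4a6b and Clec4a1, a myeloid lectin, for Ms4a6c (both 0.85).

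Ms4a6d overlapped between microglia and macrophages of different brain libraries, although macrophages were higher within each brain library. Brain microglia had 211 CPM in control, 307 and 101 CPM at 24 h and 62.2 CPM at 72 h, and brain macrophages 503, 937, 170.4 and 192 CPM in the same libraries, 2 of which lay above the highest microglia library. Border macrophages had 242, 1071, 297 and 344 CPM in brain and 937 to 1820 CPM in pia and dura. SAMC had 1031, 452 and 348 CPM in brain and 2146 CPM in pia at 24 h. The most alike genes were Ctsc (r = 0.86), Fcgr2b, the inhibitory Fc receptor (0.86), and Ms4a6b (0.85), and r with Tmem119 was 0.04.

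Over the authors' single clusters with at least 2 libraries (20 clusters), Ms4a7 was highest in CAM_2 (703 ± 628 CPM), CAM_1 (662 ± 614 CPM), Macro_2 (390 ± 363 CPM) and SAMC (262 ± 278 CPM), and Ms4a4c and Ms4a6c in Granulo_1 (505 ± 534 and 1487 ± 500 CPM). Ms4a6d was highest in SAMC (994 ± 825 CPM), CAM_1 (888 ± 570 CPM) and CAM_2 (841 ± 557 CPM). Neighbours in these orders mostly did not differ beyond the SD of either one: 2 neighbouring pairs did for Ms4a6c, 1 each for Ms4a4c and Ms4a6b, and none for Ms4a7, Ms4a4a and Ms4a6d. Macro_1 was large enough in brain at 72 h only, where Ms4a4c was at 1240 CPM. It held 73 of the 643 macrophage cells of that library. The part of this make-up in the Ms4a4c level of macrophages was not tested.

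**Figure D3:**
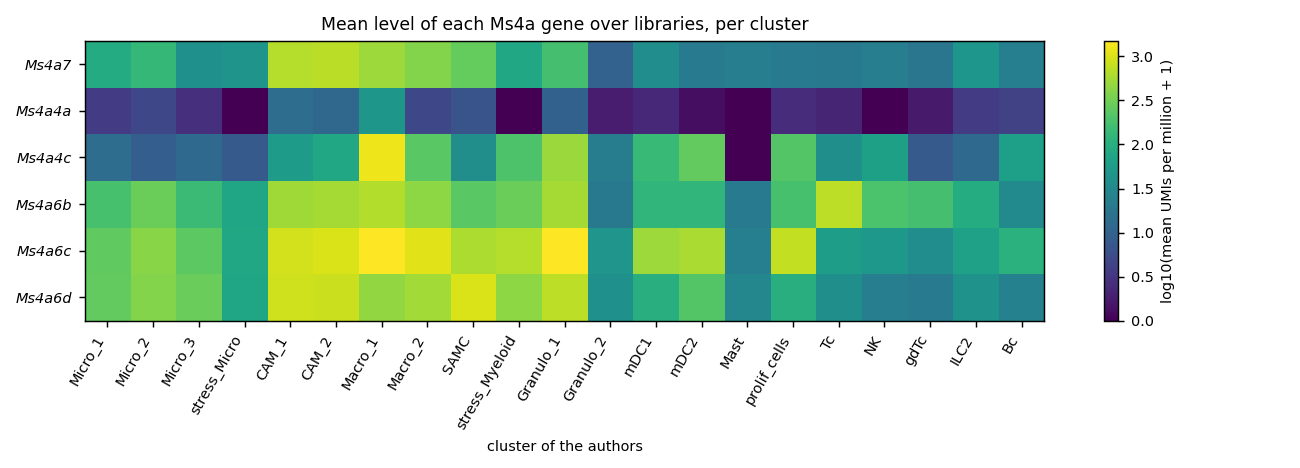
Mean level over libraries of each gene (rows) in each of the authors' clusters (columns), as a colour scale of log10(CPM + 1). Ms4a7 peaks in CAM_2 and CAM_1 (703 and 662 CPM), Ms4a4c in Macro_1, a single library, and Granulo_1 (1240 and 505 CPM), and Ms4a6b in T cells (732 CPM).

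Class comparisons used UMIs summed per library and class, with the library as a block, in edgeR over all genes that passed a filter on low counts. Calling a gene took an adjusted p (Benjamini-Hochberg) below 0.05 together with a change of 2 times or more. Border macrophages against microglia (8 libraries) had 708 of 10447 genes called (6.78%), with 3.69% of all tested genes higher and 3.08% lower in border macrophages. All 6 Ms4a genes passed the filter and were called higher in border macrophages. The log2 fold change was 3.22 for Ms4a7 (SE 0.54, edgeR adjusted p = 0.00688) and 2.87 for Ms4a4a (SE 0.66, edgeR adjusted p = 0.00923). It was 1.71 for Ms4a4c (SE 0.49, edgeR adjusted p = 0.0449), 1.72 for Ms4a6c (SE 0.27), 1.65 for Ms4a6d (SE 0.22) and 1.30 for Ms4a6b (SE 0.23). The median of the 6 was 1.72, against 0.02 over all genes tested. Without control brain and brain at 24 h replicate 1, the 2 libraries whose border macrophages carried microglia markers, the 6 genes were also called, at 1.65 (Ms4a6b) to 3.31 (Ms4a7), among 974 of 9159 genes (10.6%). This setting keeps brain at 72 h, where the monocyte sum of the cells of this name was above their border sum. The split of all calls was 386 higher and 322 lower, and it turned to 266 and 383 with scaling by library size alone and to 298 and 412 in DESeq2. Ms4a4c was called in 9 of 19 alternatives. It was not called without brain at 24 h replicate 2 (1.53, edgeR adjusted p = 0.106), control pia (1.62, edgeR adjusted p = 0.118), pia at 24 h (1.65, edgeR adjusted p = 0.111) or dura at 24 h (1.71, edgeR adjusted p = 0.0771).

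Within brain alone, Ms4a7 (log2 fold change 4.88) and Ms4a4a (5.03) were called, among 210 of 10599 genes (1.98%), and the other 4 were not (0.90 to 2.10). Of the 63 UMIs of Ms4a4a in brain border macrophages, 60 came from the library at 72 h. Most UMIs of Ms4a7 in these cells came from that library too, with 1 in control, 5 and 34 at 24 h and 1847 at 72 h. The calls within brain thus rest mostly on the library at 72 h, where the monocyte sum of these cells was above their border sum. Within pia and dura alone, Ms4a4a (1.75), Ms4a6b (1.55), Ms4a6c (1.71) and Ms4a6d (1.599) were called, among 655 of 6359 genes (10.3%), and Ms4a7 was not (2.36, SE 0.55, edgeR adjusted p = 0.0662), where its microglia clusters carry border markers. The difference between the tissues was not past the threshold for any of the 6 genes (interaction term, a comparison added after the data had been seen, 70 of 10447 genes or 0.67% called, 0.431% as higher and 0.239% as lower in pia and dura), except that Ms4a7 was called with no filter on low counts (-2.26, edgeR adjusted p = 9.03e-05) and Ms4a6b without brain at 72 h (1.16, edgeR adjusted p = 0.0417). The split of all calls was 45 higher and 25 lower, and 10 and 41 with scaling by library size alone. The interval of the difference between tissues was wide for Ms4a7, at -3.98 to -0.61 (log2 difference -2.29, edgeR adjusted p = 0.276).

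Macrophages against microglia (8 libraries) had 1974 of 10576 genes called (18.7%), and 5 of the 6 Ms4a genes were among the 9.67% called higher (8.99% were lower). Ms4a4c had the highest log2 fold change of these genes, 4.81 (SE 0.42, edgeR adjusted p = 4.66e-07), followed by Ms4a7 (3.14, SE 0.77, edgeR adjusted p = 0.0201), Ms4a6c (2.54, SE 0.25), Ms4a6b (1.38, SE 0.23) and Ms4a6d (1.34, SE 0.22). Ms4a4a was at 1.70 (SE 0.71, edgeR adjusted p = 0.0733) and was not called. The median of the 6 was 2.12, against -0.05 over all genes. The call of Ms4a7 was made in 11 of 17 alternatives, and lost without brain at 24 h replicate 2 (2.94, edgeR adjusted p = 0.057), brain at 72 h (2.91, edgeR adjusted p = 0.0761) or control pia (3.23, edgeR adjusted p = 0.0525). Ms4a4a was called without dura at 24 h (2.51, edgeR adjusted p = 0.0109). Ms4a4c and Ms4a6c were called in all alternatives, while Ms4a6b and Ms4a6d were not called when libraries were scaled by size alone, which moved the median of all genes to -0.45. That scaling also turned the split of all calls from 1023 higher and 951 lower to 595 and 1998. Within brain, 5 of the genes were tested and all were called, at 1.23 (Ms4a6b) to 5.71 (Ms4a4c), among 2693 of 10236 genes (26.3%). Within pia and dura the same 5 were called, at 1.09 (Ms4a6d) to 3.53 (Ms4a4c), among 915 of 7942 genes (11.5%).

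**Figure D4:**
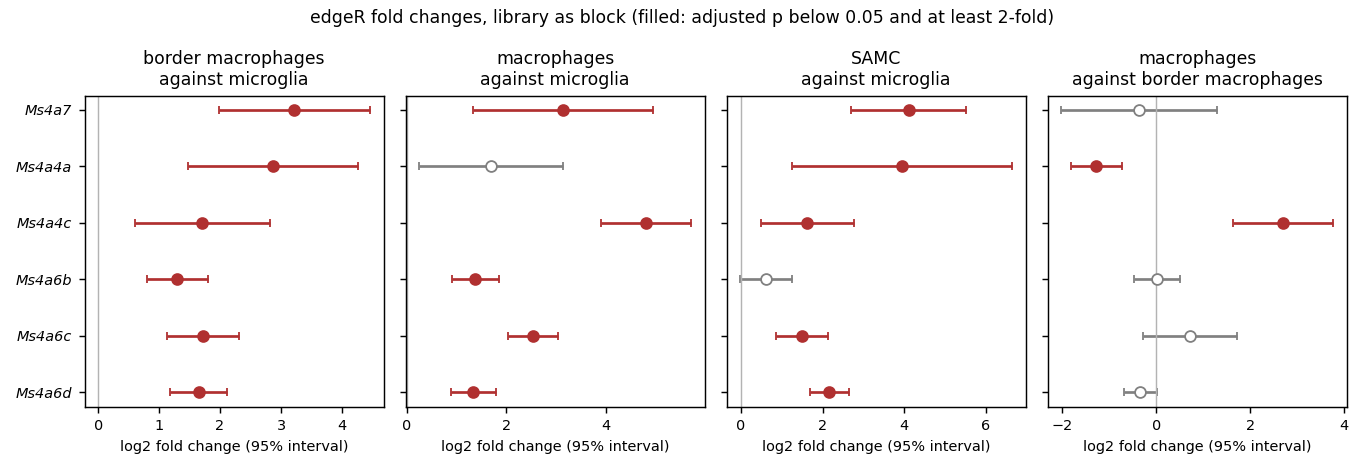
Log2 fold change of the 6 genes in each class comparison (points) with its 95% interval (lines), from edgeR over all genes, with filled points for called genes. Ms4a4c lies at 4.81 in macrophages against microglia and 1.71 in border macrophages against microglia, and Ms4a7 at 3.14 and 3.22.

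The gap between macrophages and microglia differed between tissues for 2 of the 6 genes, in a comparison added after the data had been seen in which 488 of 10576 genes (4.61%) were called, 3.08% as higher and 1.53% as lower. The log2 fold change was smaller in pia and dura than in brain for Ms4a7 (log2 difference -3.18, SE 0.50, edgeR adjusted p = 1.24e-07) and for Ms4a4c (-1.998, SE 0.50, edgeR adjusted p = 0.00352). In this fit edgeR took the spread of these genes almost wholly from all genes together. These p-values thus rest little on the spread of each gene itself. Ms4a7 was at 73.2 to 729 CPM in cells named microglia of pia and dura and at 0.406 to 15.3 CPM in those of brain. In macrophages it was also higher in pia and dura (267 to 941 CPM) than in brain (30.7 to 203 CPM). Microglia of pia and dura carried border markers, while brain macrophages had 114 to 634 CPM of border markers against 1434 to 2528 CPM in pia and dura. The part of either in the difference between tissues was not tested. Macro_1 also made up more of the macrophages in brain than in pia and dura, and its part in the Ms4a4c difference was not tested. Ms4a7 was not called without dura at 24 h (-3.10, edgeR adjusted p = 0.241) and Ms4a4c not without control dura (-1.29, edgeR adjusted p = 0.263). Ms4a6c was called without brain at 24 h replicate 1 (-1.21, edgeR adjusted p = 0.0464), and Ms4a4a was called without control brain (-4.37, edgeR adjusted p = 0.0496). Scaling by library size alone left Ms4a4c called and Ms4a7 not (-3.72, edgeR adjusted p = 0.155), added Ms4a6c (-1.48), and moved the split of all calls from 326 higher and 162 lower to 85 and 286 (97 and 131 in DESeq2).

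SAMC against microglia (4 libraries) had 1516 of 9658 genes called (15.7%), and 5 of the 6 Ms4a genes were among the 6.01% called higher (9.69% were lower), a split of 580 and 936 genes that scaling by library size alone moved to 442 and 1220. The log2 fold change was 4.11 for Ms4a7 (SE 0.60, edgeR adjusted p = 0.00292), 3.94 for Ms4a4a (SE 1.26), 2.17 for Ms4a6d (SE 0.22, edgeR adjusted p = 9.38e-06), 1.63 for Ms4a4c (SE 0.53) and 1.495 for Ms4a6c (SE 0.30). Ms4a6b was at 0.61 (SE 0.29, edgeR adjusted p = 0.161) and was not called. The median of the 6 was 1.90, against -0.07 over all genes. Ms4a4c was called in 5 of 13 alternatives and not without brain at 24 h replicate 2 (1.64), brain at 72 h (1.20) or pia at 24 h (1.23), and Ms4a4a in 4 of the 6 that tested it and not without brain at 24 h replicate 2 (4.09). Ms4a6b was called without brain at 24 h replicate 1 (1.00, edgeR adjusted p = 0.0147).

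Macrophages against border macrophages (8 libraries) had 622 of 10034 genes called (6.2%), 3.45% as higher and 2.75% as lower in macrophages (346 and 276 genes, and 281 and 458 with scaling by library size alone). Ms4a4c was called higher in macrophages (log2 fold change 2.69, SE 0.46, edgeR adjusted p = 0.00723) and Ms4a4a lower (-1.27, SE 0.26, edgeR adjusted p = 0.00194). The other 4 were not called, at -0.37 for Ms4a7 (interval -2.02 to 1.28), 0.71 for Ms4a6c, 0.02 for Ms4a6b and -0.34 for Ms4a6d. Without the same 2 brain libraries, Ms4a7 was at -0.92 (SE 0.20, edgeR adjusted p = 0.0047), short of the fold of 2.

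Border macrophages of pia and dura were set against those of brain in 7 libraries (brain at 72 h left out, with a term for time), where 676 of 8301 genes were called (8.14%), 4.7% as higher and 3.45% as lower. Of the 6 genes, 5 were called higher in pia and dura, at 6.18 for Ms4a7 (SE 1.35, edgeR adjusted p = 0.0352), 4.11 for Ms4a4a, 2.81 for Ms4a4c, 2.99 for Ms4a6c and 2.40 for Ms4a6b (SE 0.43, edgeR adjusted p = 0.0199), and Ms4a6d was not (1.83, SE 0.56, edgeR adjusted p = 0.0886). This comparison carries the naming of the 2 brain libraries. Without both, which leaves brain at 24 h replicate 2 as the brain library with its spread assumed to equal that of the others, all 6 were called, Ms4a7 at 4.19 (SE 0.29) and Ms4a6d at 3.07 (SE 0.22), where 3824 of 9043 genes (42.3%) were called, with 1 residual degree of freedom. Scaling by library size alone left Ms4a6b and Ms4a6c called of the 6 genes and turned the split of all calls from 390 higher and 286 lower to 242 and 526. Calls in this comparison rested on single libraries. Leaving out control brain gave 0 called genes (edgeR), and Ms4a7 was not called without control brain (5.18), control dura (6.24) or dura at 24 h (6.75), while Ms4a6d was called without either brain library at 24 h (2.53 and 1.49).

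A comparison without the brain border macrophage sums set the 4 border macrophage sums of pia and dura against the 4 brain microglia sums. It still rests on the authors' cluster names, and it was added after the data had been seen. It had 2327 of 8818 genes called (26.4%), 12.1% as higher in border macrophages, and all 6 Ms4a genes were among these. The log2 fold change was 8.68 for Ms4a7 (SE 1.12, edgeR adjusted p = 0.000341), 7.60 for Ms4a4a (SE 0.62), 4.12 for Ms4a4c (SE 0.39), 3.95 for Ms4a6c (SE 0.40), 3.23 for Ms4a6d (SE 0.55) and 3.07 for Ms4a6b (SE 0.39). The median was 4.04, against -0.14 over all genes, and each of the 6 was called under every alternative that tested it (CAM_2 alone did not test Ms4a4a). Scaling by library size alone moved the split of all calls from 1069 higher and 1258 lower to 728 and 2251. Class and tissue cannot be told apart in it, since the sums come from different tissues.

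The levels after MCAO were compared in the fit over 7 libraries. No gene was called at 24 h against control in border macrophages (0 of 8301 or 0% in edgeR, 540 at an unadjusted p under 0.05, 29 in DESeq2) or in macrophages (0 of 8422 or 0% in edgeR, 316 at an unadjusted p under 0.05, 9 in DESeq2). The log2 fold changes of the 6 genes in border macrophages were -0.33 (Ms4a4a) to 1.00 (Ms4a6d), with an interval of -2.30 to 3.04 for Ms4a7. In macrophages they were -1.25 (Ms4a7, interval -2.32 to -0.19) to 0.37 (Ms4a6d), all with an edgeR adjusted p = 1. Without brain at 24 h replicate 2, 363 genes were called in border macrophages, 192 as higher, and Ms4a6d was one of them (1.155, edgeR adjusted p = 0.0368). The residual spread has 3 degrees of freedom. Pia and dura have 1 library per time, which gives no test within them, and no test within brain was run.

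**Figure D5:**
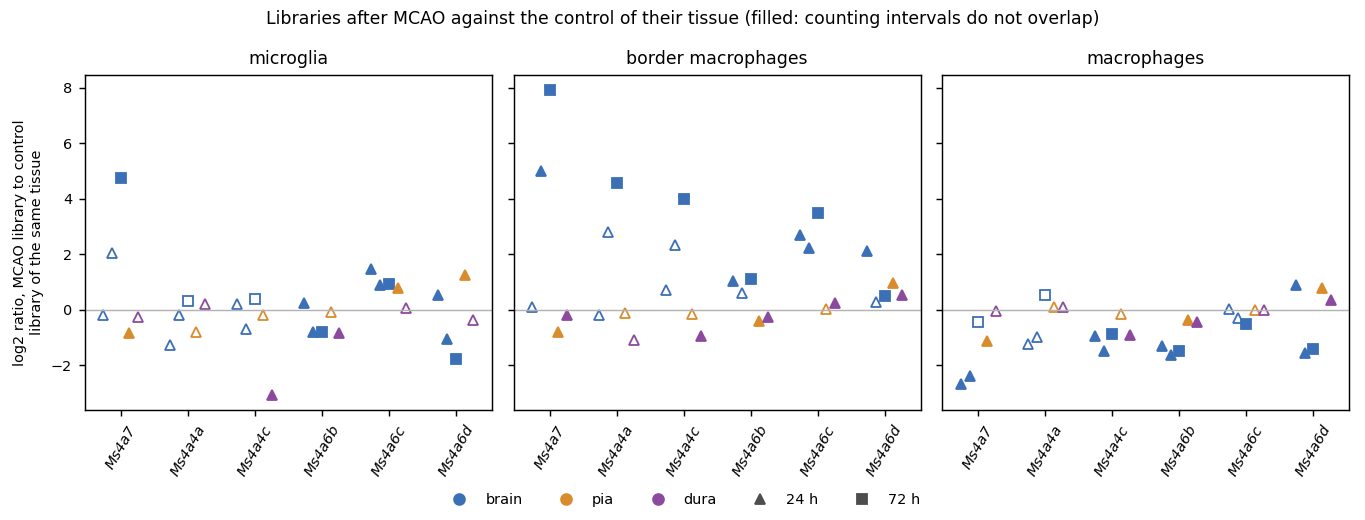
Log2 ratio of each MCAO library to the control library of its tissue, for each gene in microglia, border macrophages and macrophages. Each point is 1 library with no replicate of its control. Brain at 72 h and dura at 24 h also differ from their controls in kit version. Open symbols mark libraries whose counting interval overlaps that of the control. Ms4a6c in microglia lies at 0.07 to 1.46 and Ms4a6b in macrophages at -1.63 to -0.35.

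By library, with no test, Ms4a7 in macrophages was below control in brain at 24 h (log2 ratios -2.65 and -2.39, from 17 UMIs in the control), at -0.42 in brain at 72 h, at -1.12 in pia and at -0.04 in dura. In border macrophages it was at -0.81 in pia and -0.19 in dura, and in brain it went from 1 UMI in control to 1847 UMIs at 72 h, where the named cells also carried other markers. Brain at 72 h and dura at 24 h were made with kit version 3 and all controls with version 2. Time and kit cannot be told apart in these 2 libraries. Ms4a6c in the brain cells of this name was above control at 2.69 and 2.24 at 24 h and 3.51 at 72 h, and in pia and dura it was at 0.02 and 0.26. Ms4a6b in macrophages was below control in all 5 MCAO libraries. The brain libraries among these share 1 control library, whose macrophages held 49 UMIs of it. Ms4a6c in microglia was above control in all 5, at 1.46 and 0.89 in brain at 24 h, 0.95 at 72 h and 0.78 in pia. In dura it was at 0.07, where the intervals overlapped. Ms4a6d was above control in pia at 24 h in microglia (1.27), border macrophages (0.96) and macrophages (0.78). In dura at 24 h it was at 0.53 in border macrophages, 0.34 in macrophages and -0.36 in microglia, where the intervals overlapped. Cells named border macrophages in brain were at 2.14 and 0.30 at 24 h (intervals overlapped for replicate 2) and 0.50 at 72 h. The control brain cells of that name carried microglia markers. In brain at 24 h the replicates went opposite ways for Ms4a6d, at 0.54 and -1.06 in microglia and 0.89 and -1.57 in macrophages. In microglia and macrophages the replicates thus lay on both sides of the control library, and brain at 72 h was at -1.76 and -1.41.

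Of the other 15 genes of the family list, 7 reached 10 CPM in a class. Ms4a1, the gene of CD20, was at 572 ± 419 CPM in B cells, Ms4a2, the beta chain of the high-affinity IgE receptor, at 565 ± 19.6 CPM in mast cells, Ms4a4b at 1709 ± 751 CPM in T cells and 1195 ± 578 CPM in NK cells, Ms4a8a at 128 ± 69.7 CPM in Granulo_1 and Ms4a3 at 94.2 ± 76.6 CPM in Granulo_2. In border macrophages against microglia, 6 of the 15 were tested, of which Ms4a8a was called higher (log2 fold change 2.97) and Ms4a2 lower (-4.04). The Ms4a2 value rests on dura, where cells named microglia held 6 UMIs of it in control and 9 at 24 h, against 0, 0, 1 and 4 UMIs in the brain microglia libraries. In macrophages against microglia, 5 were tested, of which Tmem176a (1.24), Tmem176b (1.14), Ms4a8a (6.01) and Ms4a4b (2.73) were higher and Ms4a2 was lower (-4.94), from the same microglia UMIs. In SAMC against microglia, 1 of 3 was higher (Ms4a14, 4.65), and in macrophages against border macrophages Tmem176a (1.05) and Ms4a8a (1.57) were higher and Ms4a14 lower (-1.61), of 6 tested. In pia and dura border macrophages against brain microglia, Tmem176a (1.37), Tmem176b (1.34) and Ms4a4b (3.44) were higher, 3 of 3 tested. Several of these calls rest on low levels. Mean Ms4a4b was 14.6 CPM in macrophages and 7.19 CPM in border macrophages, against 1334 CPM in T and NK cells. Mean Ms4a8a was 15.7 CPM in macrophages and 4.0 CPM in border macrophages, and mean Ms4a14 was 6.67 CPM in SAMC and 5.20 CPM in border macrophages.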

How the data were processed

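Leukocytes of 8 libraries were profiled with 10x Chromium 3′ kits (version 3 for brain at 72 h and dura at 24 h, version 2 for the others). The authors counted UMIs of each gene in each barcode with Cell Ranger 6.0 (per the labels' processing notes) and deposited these counts without normalization. A table deposited by the authors names a cluster for every cell kept by their filters, and its UMAP coordinates, which are scores, were not used. Doublets were removed by the authors before clustering. One library has brain in its title and pia in its other labels, and was taken as control pia. Of the shared gene identifiers, 30329 (99.7%) are in GENCODE M21 (GRCm38). Libraries shared at most 32 cell barcode strings, with a median of 10 over 28 pairs.

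UMIs were summed per library and class over annotated cells and divided by the class total for CPM. Sums of at least 30 cells entered edgeR 4.0.16 (TMM scaling, filterByExpr, robust quasi-likelihood fit and its two-sided test, library as a block for classes of the same library) in R 4.3.3. Class comparisons used all libraries with both classes, and comparisons of times or tissues used tissue and time as terms. Ratios of single libraries added 0.5 counts to each sum. Intervals of levels, shares and pooled count ratios are exact at 95% and cover counting error only. The share that a count of 0 allows was taken as 3 counts. Intervals of log2 fold changes and their differences are 95% t intervals from the edgeR fit. They reflect a spread between libraries that edgeR estimates in part from all genes together. Likeness was the Pearson correlation over sums of at least 30 cells among genes with a mean of at least 50 CPM, and the 3 most alike genes per member were named. The steps were tested on simulated data. Other steps used Python 3.11.15, numpy 2.4.6, pandas 2.3.3, scipy 1.17.1 and matplotlib 3.10.9 with seed 20220217.

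The named genes are the members, the 3 most alike genes of each, markers, and family genes at 10 CPM or more in a class or called. The members and lists were chosen with earlier results of these data known. Alternatives were DESeq2 1.42.0, no library block, scaling by library size alone, no low-count filter and a minimum of 10 cells. Others were CAM_1 or CAM_2 alone, microglia without stress_Micro, kit version 2 libraries and each library left out. Macrophages were not split into Macro_1 and Macro_2. Alternatives by tissue, without 2 libraries together, and the comparisons with brain microglia and between tissues were added after seeing the data.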

Additional observations from a re-analysis of the deposited data

Results flagged for a closer look

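The gap between macrophages and microglia differed between tissues for 2 genes, which an interaction term in edgeR tested. It was -3.18 on the log2 scale for Ms4a7 and -1.998 for Ms4a4c (pia and dura against brain, 8 libraries). For Ms4a7 the difference was called in 12 of 14 alternatives and for Ms4a4c in 13 of 14. Calls were lost for Ms4a7 without dura at 24 h (-3.10) and with scaling by library size alone (-3.72), and for Ms4a4c without control dura (-1.29). The term was added after the data had been seen, and the cells named microglia in pia and dura carried border markers. For levels after MCAO, a direction was taken only where the counting intervals of a library and its control did not overlap, and in no gene and class did all libraries at 24 h of one tissue then lie on one side of control and all of another on the opposite side. Single libraries did, as Ms4a6d in microglia was below control in brain at 24 h replicate 2 (-1.06) and above it in pia (1.27). By sign alone, Ms4a6b in border macrophages was above control in both brain libraries at 24 h (1.04 and 0.60 on the log2 scale) and below it in pia (-0.41) and dura (-0.27), as were Ms4a7 and Ms4a4c. These differences between tissues were not tested, and the control brain cells of this name carried microglia markers.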

How the results depend on the processing

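Genes called stayed within 1.5 times the reported number in 103 of 153 recomputations, and members kept direction and side of the threshold in 762 of 896. Libraries left out 1 at a time gave 433 to 914 genes for border macrophages against microglia, 0 to 363 for border macrophages and 0 to 192 for macrophages at 24 h (both highest without brain at 24 h replicate 2), 0 (without control brain) to 2137 (without brain at 24 h replicate 2) for border macrophages by tissue, 1512 to 2812 for pia and dura border macrophages against brain microglia, and 8 to 247 and 235 to 542 for the tissue differences of border macrophages and of macrophages against microglia. Version 2 kits alone gave 451 (border macrophages against microglia), 67 (by tissue), 1172 (against brain microglia), 300 and 222 (tissue differences). Without the library block, calls fell to 0 (border macrophages against microglia), 1016 (macrophages against microglia), 30 (SAMC against microglia) and 83 (macrophages against border macrophages). DESeq2 gave 29 and 9 at 24 h (border macrophages, macrophages), 1105 by tissue and 228 for the tissue difference of macrophages, and no filter gave 94, 38, 1406, 257 (tissue difference of border macrophages) and 320 (of macrophages). CAM_2 alone gave 1 at 24 h, 274 by tissue and 43 for the tissue difference, for which CAM_1 alone gave 142. Brain alone gave 210 for border macrophages against microglia, and pia and dura alone gave 915 for macrophages against microglia. Without control brain and brain at 24 h replicate 1 together, there were 327 and 221 at 24 h, 3824 by tissue, 5346 against brain microglia and 296 for the tissue difference of border macrophages. The causes were not tested. Most settings also had fewer libraries than the reported comparison.

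Signs turned for values that were not called. For macrophages against border macrophages these were Ms4a7 (0.55 in brain alone) and Ms4a6b (-0.22 to 0.0893 with 1 library left out, -0.17 by library size, -0.0379 with no filter, -0.10 with no block, -0.29 in pia and dura alone, -0.23 without both libraries). For border macrophages at 24 h these were Ms4a7 (-0.50 to 1.32, and -0.50 without both), Ms4a4a (-0.57 to 0.26, version 2 kits 0.252), Ms4a4c (-0.56 to 0.48, DESeq2 0.0018, version 2 kits 0.48) and Ms4a6b (-0.35 to 0.27, -0.34 without both). For macrophages at 24 h these were Ms4a4a (-0.0408 in DESeq2) and Ms4a6d (-0.0744 to 0.62). For the tissue difference of border macrophages these were Ms4a4c (-1.31 to 0.16, version 2 kits 0.0232), Ms4a6c (-0.0727 to 0.75, library size -0.0733, -0.36 without both) and Ms4a6d (-0.18 to 0.58, library size -0.15, CAM_2 alone -0.0391, -0.29 without both), and for that of macrophages Ms4a6b (-0.14 to 0.48, DESeq2 -0.0345, library size -0.30) and Ms4a6d (-0.45 to 0.0512).

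Classes of the same library were paired through the library block. No paired analysis was possible because, between tissues or times, no groups share 2 or more replicate numbers. Of the shares of cells, 122 of 168 moved beyond their interval when the thinning depth changed, so shares are compared at 1 depth only. Depth limits Ms4a4a most, as brain microglia held 1 UMI.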
